A study of Homo sapiens with 8 samples.

Results

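The genes described here are 49 genes of mitosis and the G2/M transition, taken by gene symbol. Where a gene had several probe sets, the one with the highest mean over the 8 arrays was used. All 49 had a probe set and all 49 passed the filter on dim genes, a log2 value over 4 in at least 2 arrays. They are part of 7696 genes tested, out of 11963 with a probe set of 1 symbol. Gene expression was measured on Affymetrix arrays in 2 human cancer lines, Caco-2, a colorectal adenocarcinoma line, and HUG1N, a gastric line that some labels call HuG-1. There were 4 groups of 2 arrays, Caco-2 cells with an shRNA (a hairpin RNA that lowers a chosen mRNA) directed at GATA6, Caco-2 control cells, HUG1N cells with that shRNA and HUG1N control cells. GATA6 encodes a zinc-finger factor that acts in the development of gut endoderm. The labels describe infection with the shRNA and puromycin selection in 1 protocol text that also stands on the control arrays, and give neither the control construct nor the time. Whether the 2 arrays of a group are separate cultures is not stated, so the p-values measure only the spread between arrays, which may be technical.

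Entry into mitosis is driven by CDK1 bound to A- and B-type cyclins. Aurora and polo-like kinases, kinetochores and kinesins then build the spindle, and the anaphase-promoting complex with CDC20 frees separase to split sister chromatids. Many of these genes are transcribed together late in the cell cycle, through the MuvB complex, B-MYB and FOXM1, which act at a promoter element called the cell cycle genes homology region (CHR), and through NF-Y at CCAAT boxes. Their summed mRNA is commonly read as a sign of how many cells divide. In bulk RNA, fewer cells in mitosis and less of such an mRNA per cell cannot be told apart.

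GATA6 itself had log2 values of 12.23 and 12.02 in Caco-2 shRNA cells, against 12.63 and 12.45 in Caco-2 control cells (change -0.42, SE 0.10, limma adjusted p = 0.0224). In HUG1N it had 12.26 and 12.22 in shRNA cells, against 12.54 and 12.45 in control cells (-0.25, SE 0.10, adjusted p = 0.0879). The HUG1N shRNA arrays stood apart in the ACTB and GAPDH gaps and in 1 of the hybridisation controls. The gap between the 3′ and 5′ probe sets of ACTB, which grows with RNA degradation, was 3.69 and 3.77 in HUG1N shRNA arrays, against 2.68 and 2.35 in HUG1N control arrays. In Caco-2 it was 1.65 and 1.46 in shRNA arrays, against 1.91 and 1.94 in control arrays. The same gap for GAPDH was 0.67 and 0.59 in HUG1N shRNA arrays, against 0.37 and 0.44 in HUG1N control arrays. In Caco-2 the GAPDH gap was 0.09 and 0.06 in shRNA arrays, against 0.15 and 0.17 in control arrays. The mean of the BioB hybridisation controls was 4.77 and 4.52 in HUG1N shRNA arrays, against 10.03 and 9.89 in HUG1N control arrays, and lay between 9.32 and 9.62 in the 4 Caco-2 arrays. The mean of the other hybridisation controls, BioC, BioD and Cre, was 13.25 and 13.17 in HUG1N shRNA arrays and lay between 13.06 and 13.49 in the other 6 arrays. Epithelial markers were over log2 4 for 5 of 5 genes. Their summed log2 values were 70.9 to 71.1 in Caco-2 shRNA, 68.7 to 68.9 in Caco-2 control, 65.2 to 65.4 in HUG1N shRNA and 62.8 to 63.0 in HUG1N control arrays. In Caco-2 only KRT8 and KRT18 had higher means in shRNA than in control arrays, and EPCAM, CDH1 and VIL1 did not. VIL1 was 8.22 and 8.02 in HUG1N shRNA and 7.11 and 6.84 in HUG1N control arrays, against 11.64 to 11.99 in Caco-2. Of 7 fibroblast markers only COL1A1 and LUM exceeded log2 4 in any array, with summed values of 22.4 to 22.9 in Caco-2 shRNA arrays against 18.4 to 18.5 in Caco-2 control arrays, and COL1A2, COL3A1, DCN and THY1 lay near the lowest value. LUM alone moved there, at 7.45 and 7.62 in Caco-2 shRNA arrays, against 3.52 and 3.33 in control arrays. Of 8 immune markers 6 had a probe set, and only CD14 and LYZ exceeded log2 4, with sums of 18.5 to 19.7 in Caco-2 shRNA, 21.9 to 22.8 in Caco-2 control, 23.3 to 23.5 in HUG1N shRNA and 22.8 to 22.8 in HUG1N control arrays. PTPRC and CD3E were at the lowest value of the table on all 8 arrays. In HUG1N the fibroblast sums were 17.0 to 17.5 in shRNA arrays and 17.0 to 17.6 in control arrays. The part of any of these differences in the results below was not tested.

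The promoters of the genes called lower with the shRNA in both lines show how the elements named above are spread among them. Of these 11 genes, 10 had a window in the RefSeq table. Each stretch runs from 140 bases before to 20 bases after a gene start of GRCh38.p14, 5′ to 3′ on the strand of the gene, and the first listed start is shown for AURKB, which has 2. Capitals mark TTTGAA or its reverse complement TTCAAA, the letters searched for the CHR, and CCAAT or its reverse complement ATTGG. On the plus strand lie chr9:89311055-89311214 (CKS2), chr4:1720491-1720650 (TACC3), chr15:40160929-40161088 (BUB1B), chr2:26785916-26786075 (CENPA), chr12:53268159-53268318 (ESPL1), chr5:138178972-138179131 (KIF20A), chr1:44739697-44739856 (KIF2C), chr15:41332741-41332900 (NUSAP1). On the minus strand lie chr17:8210206-8210365 (AURKB) and chr1:200620732-200620891 (KIF14).
CKS2: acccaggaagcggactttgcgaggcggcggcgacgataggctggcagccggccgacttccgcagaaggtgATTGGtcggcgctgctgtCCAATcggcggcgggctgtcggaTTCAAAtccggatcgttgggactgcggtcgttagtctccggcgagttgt
AURKB: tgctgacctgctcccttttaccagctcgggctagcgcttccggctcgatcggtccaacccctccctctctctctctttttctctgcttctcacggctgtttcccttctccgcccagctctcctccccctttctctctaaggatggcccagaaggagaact
TACC3: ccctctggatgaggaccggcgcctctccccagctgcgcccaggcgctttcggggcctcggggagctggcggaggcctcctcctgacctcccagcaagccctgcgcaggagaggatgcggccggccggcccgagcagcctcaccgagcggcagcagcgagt
BUB1B: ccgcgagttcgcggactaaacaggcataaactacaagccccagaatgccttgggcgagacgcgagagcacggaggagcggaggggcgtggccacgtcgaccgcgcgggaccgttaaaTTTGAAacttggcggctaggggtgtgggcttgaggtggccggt
CENPA: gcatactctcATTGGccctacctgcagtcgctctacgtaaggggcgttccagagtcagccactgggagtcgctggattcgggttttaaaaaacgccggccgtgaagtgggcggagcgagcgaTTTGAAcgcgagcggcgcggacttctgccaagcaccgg
ESPL1: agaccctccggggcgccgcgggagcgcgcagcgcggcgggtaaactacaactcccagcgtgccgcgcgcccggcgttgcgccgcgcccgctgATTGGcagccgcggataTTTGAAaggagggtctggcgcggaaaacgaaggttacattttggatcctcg
KIF14: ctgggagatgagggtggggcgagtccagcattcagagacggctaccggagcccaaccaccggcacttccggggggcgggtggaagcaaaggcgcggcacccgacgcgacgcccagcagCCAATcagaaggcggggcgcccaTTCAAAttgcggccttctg
KIF20A: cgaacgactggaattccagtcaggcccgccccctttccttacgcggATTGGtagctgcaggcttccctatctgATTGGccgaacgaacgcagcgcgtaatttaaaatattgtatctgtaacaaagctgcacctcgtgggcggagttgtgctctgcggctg
KIF2C: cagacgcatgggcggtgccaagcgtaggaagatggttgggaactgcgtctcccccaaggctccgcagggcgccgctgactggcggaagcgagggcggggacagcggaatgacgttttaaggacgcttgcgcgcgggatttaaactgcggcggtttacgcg
NUSAP1: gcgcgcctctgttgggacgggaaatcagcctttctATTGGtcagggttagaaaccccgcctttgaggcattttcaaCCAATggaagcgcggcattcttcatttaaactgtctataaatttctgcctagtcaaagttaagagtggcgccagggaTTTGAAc

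ESPL1 holds TTTGAA with its first letter 31 bases before the start and a CCAAT box, as ATTGG, 48 bases before it. CKS2 has the same order, with TTCAAA 29 bases and CCAAT boxes 70 and 52 bases before the start. CENPA has TTTGAA 18 bases and ATTGG 130 bases before the start, and BUB1B has TTTGAA at 23 bases and no CCAAT in the printed stretch. KIF20A has ATTGG at 94 and 67 bases without TTTGAA. In NUSAP1 the TTTGAA lies 14 bases after the start, with CCAAT boxes 105 and 64 bases before it, and KIF14 has a match 2 bases after the start and a CCAAT box 22 bases before it. AURKB, TACC3 and KIF2C hold neither in these stretches. AURKB has a CCAAT match further out, at -153 from the start shown. From its other start the match is at -129, which would lie within a stretch drawn from there. The RefSeq start windows of 300 bases, 250 before to 50 after a start, were found for 41 of the 49 genes, 55 windows in all because some genes have several starts that can overlap. TTTGAA in either orientation was in 32 of the 55 windows (58.2%), against 15.2% of all 35116 windows and 10.8% of 9554 windows of genes tested here. CCAAT was in 39 (70.9%), against 34.6% and 35.2%, and both were in 26 (47.3%), against 5.9% and 4.3%. A match of letters is a description and not a binding site.

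In Caco-2, 18 of the 49 genes fell with the GATA6 shRNA and 0 rose, which is 36.7% against 19.2% of all genes tested that were called lower. A call is an adjusted p under 0.05 from limma over all 7696 genes. The background share called higher was 19.5%. The leading falls were of ESPL1, the separase gene, at 47.4% of the control level, and NCAPH, a condensin subunit, at 56.7%. The median log2 change of the 49 genes was -0.22, against -0.003 over all genes tested, and 48 of 49 changes were below 0. For 43 of the 49 genes each shRNA array was lower than each control array, against 37.5% of all genes tested, and for 0 each was higher, against 36.0%. The count of falls was 9 without Caco-2 control replicate 1, 10 without control replicate 2 and 11 without shRNA replicate 2, so it rested in part on single arrays. A fall of at least 2-fold was found for 1 gene, ESPL1.

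In HUG1N, 23 of the 49 genes fell and 5 rose, which is 46.9% and 10.2%, against 23.9% and 24.7% of all genes tested. The leading falls were of AURKB, the kinase of the chromosomal passenger complex, at 35.8% of the control level, and NUSAP1, a microtubule-binding protein of the spindle, at 42.6%. The leading rises were of HMMR, at 141% of control, and KIF23, at 135%. The median change was -0.27, against 0.000 over all genes. For 29 genes each shRNA array was lower than each control array and for 9 each was higher, against 37.3% and 37.4% of all genes tested. The 5 rises became 3 without HUG1N control replicate 1, 3 without control replicate 2 and 2 without shRNA replicate 1. Falls of at least 2-fold were found for 4 genes. These changes stand beside the wider ACTB and GAPDH gaps and the low BioB controls of the HUG1N shRNA arrays.

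**Figure D1:**
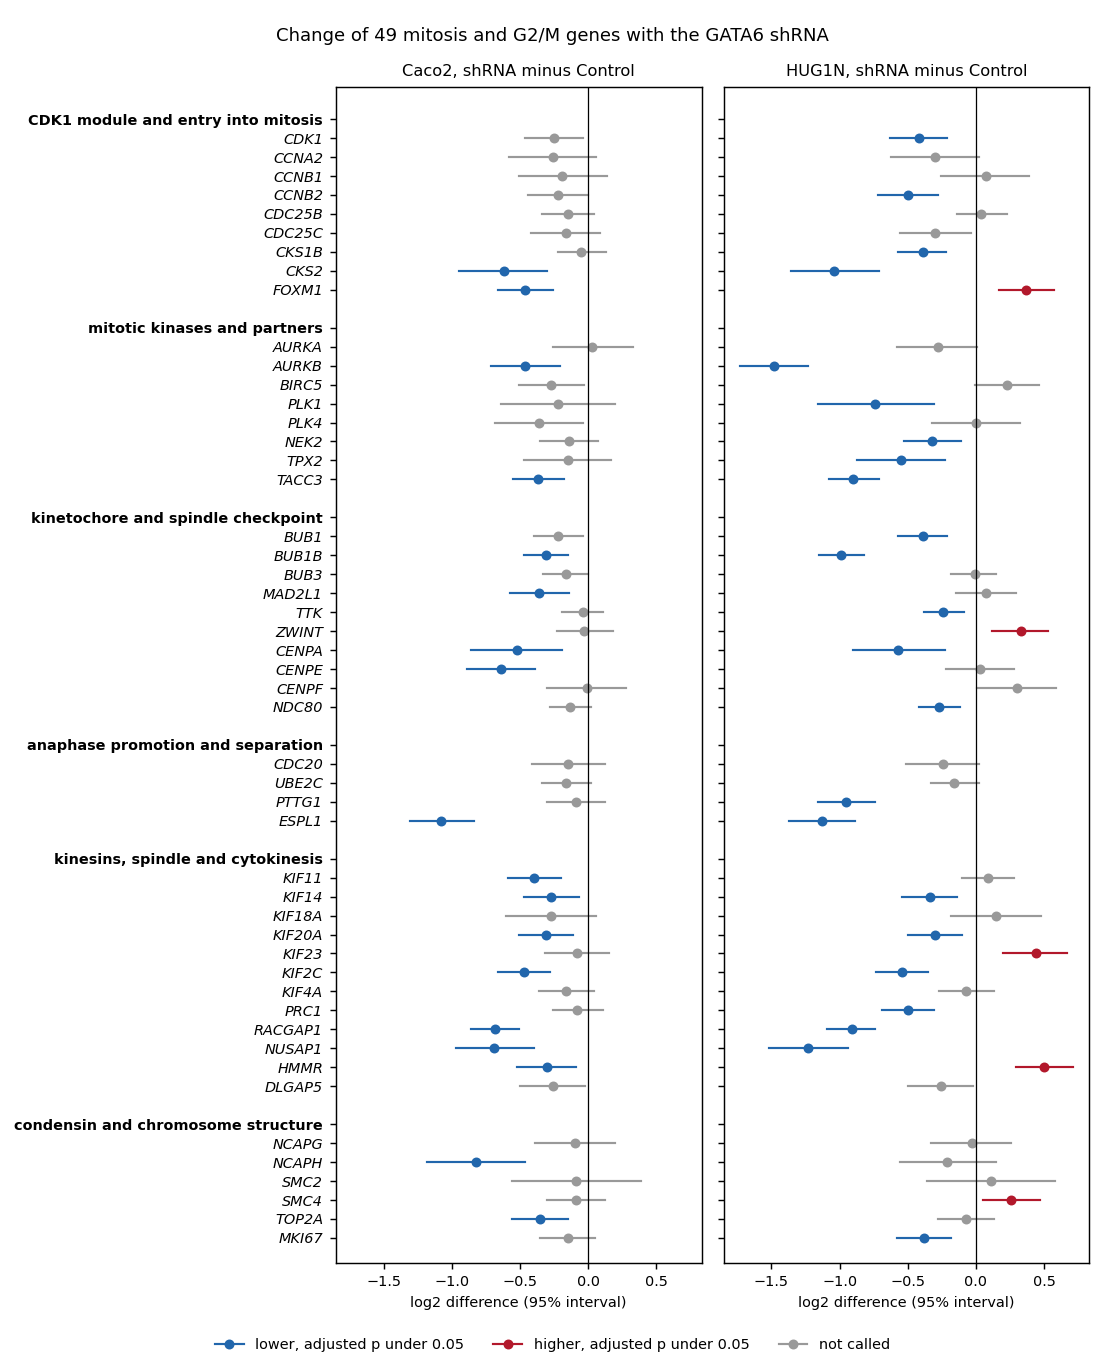
Log2 change (shRNA minus control, x axis) of each of the 49 genes in Caco-2 (left) and HUG1N (right), grouped by role, with points for the limma estimate, bars for its 95% interval and colours for the call, from 2 arrays per group. All called Caco-2 points lie left of 0, and in HUG1N 23 lie left and 5 right.

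Genes of the CDK1 module and mitotic entry are taken first. Of 9 genes, 2 fell and 0 rose in Caco-2, and 4 fell and 1 rose in HUG1N. That is 22.2% lower in Caco-2, near the 19.2% of all genes tested, and 44.4% lower in HUG1N, against 23.9%. CKS2 encodes a small subunit of cyclin-dependent kinases. It had log2 values of 11.95 and 11.87 in Caco-2 shRNA cells, against 12.72 and 12.35 in control cells, a change of -0.62 (SE 0.13, adjusted p = 0.0128). The HUG1N values were 11.61 and 11.45 in shRNA cells, against 12.57 and 12.55 in control cells, a change of -1.04 (SE 0.13, adjusted p = 0.00143). The groups did not overlap in either line. Its paralogue CKS1B was called in HUG1N alone, at -0.39 (SE 0.07, adjusted p = 0.00579), and stood at -0.05 (95% interval -0.22 to 0.13) in Caco-2.

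CDK1, the kinase at the centre of the module, changed by -0.42 (SE 0.09, adjusted p = 0.00903) in HUG1N, where its other 2 probe sets also fell. Its Caco-2 change of -0.25 was not called (adjusted p = 0.0660), although the shRNA arrays lay below the control arrays. CCNB2, a B-type cyclin, changed by -0.50 (SE 0.09, adjusted p = 0.00533) in HUG1N and by -0.22 (adjusted p = 0.106) in Caco-2. The main B-type cyclin, CCNB1, had 12.63 and 12.61 in Caco-2 shRNA cells against 12.83 and 12.79 in control cells, and 11.20 and 10.82 in HUG1N shRNA cells against 10.85 and 11.03 in control cells. Its HUG1N arrays overlapped, and neither change was called (adjusted p = 0.321 and 0.714). CCNA2, the A-type cyclin of S phase and G2, had 11.07 and 10.93 in Caco-2 shRNA cells against 11.29 and 11.23 in control cells, and 9.09 and 8.84 in HUG1N shRNA cells against 9.42 and 9.13 in control cells. Its changes of -0.26 and -0.30 had adjusted p of 0.170 and 0.104. The CDK1-activating phosphatase genes CDC25B and CDC25C were called in neither line, with changes of -0.15 and -0.16 in Caco-2 and 0.04 and -0.30 in HUG1N.

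FOXM1, the forkhead factor that drives transcription of many G2/M genes, was called in opposite directions. Of the 49 genes, FOXM1 and HMMR were called lower in Caco-2 and higher in HUG1N. That is 4.08% of the genes, near the 3.44% of all genes tested. FOXM1 had 9.45 and 9.55 in Caco-2 shRNA cells, against 9.88 and 10.04 in control cells, a fall to 72.7% of control (-0.46, SE 0.08, adjusted p = 0.00695). HUG1N cells had 7.91 and 7.83 in shRNA cells, against 7.51 and 7.49 in control cells, a rise to 129% of control (0.37, SE 0.08, adjusted p = 0.0123). The HUG1N effect exceeded the Caco-2 effect by 0.83 (SE 0.12, adjusted p = 0.00268). The HUG1N rise had an adjusted p of 0.0514 without control replicate 2 and of 0.0555 without shRNA replicate 1, with changes of 0.36 and 0.33. FOXM1 had 1 probe set.

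Among 8 mitotic kinases and their partners, 2 fell in Caco-2 and 5 in HUG1N, and 0 rose in either line. That is 25.0% lower in Caco-2, near the background of 19.2%, and 62.5% lower in HUG1N, against 23.9%. AURKB had 7.65 and 7.81 in HUG1N shRNA cells, against 9.19 and 9.23 in control cells, the largest HUG1N change of the 49 genes (-1.48, SE 0.10, adjusted p = 1.85e-04). In Caco-2 it had 9.21 and 9.32 in shRNA cells, against 9.61 and 9.83 in control cells (-0.46, SE 0.10, adjusted p = 0.0158). The fall was larger in HUG1N by 1.03 on the log2 scale (difference -1.03, SE 0.15, adjusted p = 0.00266). AURKA, the related kinase of centrosomes and spindle poles, was called in neither line, at 0.03 (95% interval -0.26 to 0.33) in Caco-2 and -0.28 (-0.58 to 0.01) in HUG1N. TACC3, a spindle protein that AURKA phosphorylates, had 8.28 and 8.20 in Caco-2 shRNA cells, against 8.62 and 8.60 in control cells (-0.37, SE 0.08, adjusted p = 0.0115). Its HUG1N values were 7.13 and 7.12 in shRNA cells, against 8.10 and 7.95 in control cells (-0.90, SE 0.08, adjusted p = 3.53e-04). The fall of TACC3 was larger in HUG1N (difference -0.53, SE 0.11, adjusted p = 0.00932).

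PLK1, the polo-like kinase of mitotic entry and spindle assembly, was dim on these arrays. It had 4.17 and 3.84 in HUG1N shRNA cells, against 4.88 and 4.60 in control cells (-0.74, SE 0.17, adjusted p = 0.0145), a call that did not hold without control replicate 1 (-0.60, 0.0775) or shRNA replicate 2 (-0.57, 0.0715). In Caco-2 it had 5.20 and 5.06 in shRNA cells and 5.17 and 5.53 in control cells, which overlapped (adjusted p = 0.368). The centrosome kinase NEK2 and the spindle assembly factor TPX2 changed by -0.32 (SE 0.09, adjusted p = 0.0248) and -0.55 (SE 0.13, adjusted p = 0.0149) in HUG1N. In Caco-2 they stood at -0.14 and -0.15 and were not called. PLK4, the kinase of centriole duplication, was called in neither line (-0.36 in Caco-2, 0.00 in HUG1N). The NEK2 call did not hold without HUG1N control replicate 1 (-0.30, 0.0915), control replicate 2 (-0.33, 0.0712) or shRNA replicate 1 (-0.25, 0.102), and the TPX2 call without control replicate 1 (-0.49, 0.0756).

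Of 10 kinetochore and spindle checkpoint genes, 4 fell in Caco-2, and 5 fell and 1 rose in HUG1N (40.0% lower in Caco-2, against 19.2% of all genes tested, and 5 of 10 lower in HUG1N, against 23.9%). BUB1B encodes BUBR1, which holds back anaphase until chromosomes attach. It had 9.65 and 9.73 in HUG1N shRNA cells, against 10.64 and 10.72 in control cells, a fall to 50.5% of control (-0.99, SE 0.07, adjusted p = 1.82e-04). In Caco-2 it had 11.04 and 11.06 in shRNA cells, against 11.37 and 11.35 in control cells (-0.31, SE 0.07, adjusted p = 0.0139). The difference between the lines was -0.67 (SE 0.10, adjusted p = 0.00266). CENPA, the histone variant that marks centromeres, had 7.80 and 7.88 in Caco-2 shRNA cells, against 8.30 and 8.42 in control cells (-0.52, SE 0.14, adjusted p = 0.0266), and 7.75 and 7.35 in HUG1N shRNA cells, against 8.09 and 8.14 in control cells (-0.57, SE 0.14, adjusted p = 0.0156).

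CENPE, the kinesin that carries chromosomes to the metaphase plate, moved in Caco-2. It had 8.55 and 8.59 in Caco-2 shRNA cells, against 9.30 and 9.11 in control cells (-0.64, SE 0.10, adjusted p = 0.00461), and the groups were well apart. HUG1N values of CENPE were 8.29 and 8.10 in shRNA cells and 8.23 and 8.11 in control cells, which overlapped (0.03, 95% interval -0.22 to 0.28), and the lines differed by 0.66 (SE 0.15, adjusted p = 0.0125). The checkpoint gene MAD2L1 followed the same order, with a change of -0.36 (SE 0.09, adjusted p = 0.0240) in Caco-2 and 0.07 (-0.15 to 0.29) in HUG1N. The call in Caco-2 did not hold without control replicate 1 (-0.37, 0.0829), control replicate 2 (-0.34, 0.105) or shRNA replicate 2 (-0.26, 0.0952). The checkpoint kinases BUB1 and TTK changed in HUG1N by -0.39 (SE 0.07, adjusted p = 0.00671) and -0.24 (SE 0.06, adjusted p = 0.0202), as did NDC80, which binds microtubules at the kinetochore, by -0.27 (SE 0.06, adjusted p = 0.0129). With the mean of its probe sets the BUB1 change in HUG1N was -0.13 and not called (adjusted p = 0.115). That mean included BUB1 probe sets that lay at the lowest value on all 8 arrays. Such probe sets show no change and draw the mean towards none, so this alternative cannot test the BUB1 call. The other BUB1 probe set above the lowest value also had a negative change in HUG1N (-0.27). BUB1, TTK and NDC80 stood at -0.22, -0.04 and -0.13 in Caco-2 and were not called there. A dim probe set of BUB1 was called lower in Caco-2 (-0.75, SE 0.13, adjusted p = 0.00635). Its means there were 3.71 in shRNA cells and 4.46 in control cells, and in HUG1N it was not called (-0.27, adjusted p = 0.130). The kinetochore scaffold gene ZWINT was called higher in HUG1N, at 0.33 (SE 0.08, adjusted p = 0.0192), a call lost without control replicate 1 (0.25, 0.0848) or shRNA replicate 1 (0.29, 0.0794), and stood at -0.03 (-0.23 to 0.18) in Caco-2. The TTK call failed without HUG1N control replicate 2 (-0.22, 0.0708) or shRNA replicate 2 (-0.23, 0.0594). BUB3 and CENPF were called in neither line on the probe sets that stood for them. Another probe set of BUB3 was called lower in Caco-2 alone (-0.42, SE 0.09, adjusted p = 0.0131). A different one was called lower in HUG1N alone (-0.22, SE 0.07, adjusted p = 0.0467).

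Of 4 genes of anaphase promotion and separation, 1 fell in Caco-2 and 2 in HUG1N, and 0 rose. The Caco-2 share, 25.0%, is near the 19.2% of all genes tested, and the HUG1N background is 23.9%. ESPL1, the protease that cleaves cohesin, had 7.80 and 7.95 in Caco-2 shRNA cells, against 8.92 and 8.98 in control cells (-1.08, SE 0.10, adjusted p = 5.17e-04). In HUG1N it had 7.69 and 7.54 in shRNA cells, against 8.83 and 8.66 in control cells (-1.13, SE 0.10, adjusted p = 3.78e-04). The difference between the lines was -0.05, with a 95% interval of -0.39 to 0.28. PTTG1, the securin that inhibits separase, differed between the lines by -0.85 (SE 0.12, adjusted p = 0.00279). It had 11.73 and 11.53 in HUG1N shRNA cells, against 12.61 and 12.55 in control cells (-0.95, SE 0.09, adjusted p = 4.58e-04), and 12.92 and 12.98 in Caco-2 shRNA cells, against 13.02 and 13.06 in control cells (-0.09, SE 0.09, adjusted p = 0.444). CDC20 and UBE2C, an activator and a ubiquitin-conjugating enzyme of the anaphase-promoting complex, were called in neither line, with changes of -0.15 and -0.16 in Caco-2 and of -0.24 and -0.16 in HUG1N. Intervals reached -0.41 for CDC20 in Caco-2 and -0.51 in HUG1N.

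Kinesins and genes of the spindle and cytokinesis gave 7 falls of 12 in Caco-2, and 6 falls and 2 rises in HUG1N (58.3% lower in Caco-2, against 19.2% of all genes tested, and 6 of 12 lower in HUG1N, against 23.9%). RACGAP1, a subunit of the centralspindlin complex that positions the cleavage furrow, had 11.53 and 11.49 in Caco-2 shRNA cells, against 12.23 and 12.16 in control cells (-0.68, SE 0.07, adjusted p = 8.82e-04). In HUG1N it had 11.01 and 11.08 in shRNA cells, against 12.01 and 11.91 in control cells (-0.91, SE 0.07, adjusted p = 2.81e-04). KIF23, the kinesin subunit of that complex, was called higher in HUG1N, at 0.44 (SE 0.10, adjusted p = 0.0114; 0.41 and adjusted p = 0.0552 without control replicate 2), and stood at -0.08 (95% interval -0.32 to 0.15) in Caco-2. The calls of the centralspindlin subunits thus had opposite signs in HUG1N. NUSAP1 had 11.79 and 11.78 in Caco-2 shRNA cells, against 12.45 and 12.50 in control cells (-0.69, SE 0.12, adjusted p = 0.00576), and 11.21 and 10.99 in HUG1N shRNA cells, against 12.47 and 12.19 in control cells (-1.23, SE 0.12, adjusted p = 5.38e-04).

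KIF2C, a kinesin that takes microtubules apart at the centromere, had 9.39 and 9.50 in Caco-2 shRNA cells, against 9.98 and 9.86 in control cells (-0.47, SE 0.08, adjusted p = 0.00523). Its HUG1N values were 9.34 and 9.26 in shRNA cells, against 9.86 and 9.82 in control cells (-0.54, SE 0.08, adjusted p = 0.00233). All 4 shRNA arrays lay below all 4 control arrays. KIF14 and KIF20A, kinesins of cytokinesis, moved by less. KIF14 had 9.35 and 9.34 in Caco-2 shRNA cells, against 9.64 and 9.59 in control cells (-0.27, adjusted p = 0.0431), and 9.26 and 9.09 in HUG1N shRNA cells, against 9.48 and 9.56 in control cells (-0.34, adjusted p = 0.0153). KIF20A had 10.55 and 10.59 in Caco-2 shRNA cells, against 10.84 and 10.91 in control cells (-0.31, adjusted p = 0.0291), and 9.17 and 9.08 in HUG1N shRNA cells, against 9.50 and 9.34 in control cells (-0.30, adjusted p = 0.0261).

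HMMR, a hyaluronan receptor that also sits on spindle microtubules, was the other gene called in opposite directions. It had 12.22 and 12.01 in Caco-2 shRNA cells, against 12.44 and 12.40 in control cells (-0.30, SE 0.09, adjusted p = 0.0371), and 11.49 and 11.48 in HUG1N shRNA cells, against 10.95 and 11.02 in control cells (0.50, SE 0.09, adjusted p = 0.00481). The lines differed by 0.80 (SE 0.12, adjusted p = 0.00364). The Caco-2 call was the less firm, at -0.28 (adjusted p = 0.147) without Caco-2 control replicate 1, -0.33 (0.106) without control replicate 2, -0.20 (0.126) without shRNA replicate 2 and -0.30 (0.0549) without any one HUG1N array, and was also lost with no filter (0.0639) and with each line fitted alone (0.0902). The motor KIF11, which pushes spindle poles apart, changed in Caco-2 by -0.40 (SE 0.08, adjusted p = 0.0103; -0.36 and 0.0600 without control replicate 1) and stood at 0.09 (95% interval -0.10 to 0.28) in HUG1N. The midzone bundler PRC1 changed in HUG1N by -0.50 (SE 0.08, adjusted p = 0.00284) and stood at -0.08 (-0.26 to 0.11) in Caco-2. KIF18A, KIF4A and DLGAP5 were called in neither line, with changes from -0.27 to 0.15.

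Of 6 condensin and chromosome genes, 2 fell in Caco-2, and 1 fell and 1 rose in HUG1N. The HUG1N shares, 16.7% each way, were below the 23.9% and 24.7% of all genes tested, and the Caco-2 share was 33.3%, against 19.2%. NCAPH, the condensin I kleisin, had 8.15 and 8.31 in Caco-2 shRNA cells, against 8.96 and 9.14 in control cells (-0.82, SE 0.15, adjusted p = 0.00675). HUG1N values of NCAPH were 7.94 and 7.59 in shRNA cells and 8.08 and 7.87 in control cells, which overlapped (-0.21, 95% interval -0.56 to 0.15). The other condensin genes did not follow, with NCAPG at -0.10, SMC2 at -0.09 and SMC4 at -0.09 in Caco-2, each with an interval that included 0. SMC2 had 9.99 and 9.97 in Caco-2 shRNA cells and 10.11 and 10.02 in control cells, and 8.46 and 7.88 in HUG1N shRNA cells and 8.20 and 7.92 in control cells. SMC4 was called higher in HUG1N (0.26, SE 0.09, adjusted p = 0.0467), but its 2 other probe sets stood at -0.25 and -0.11, and the mean of its probe sets at -0.03 (adjusted p = 0.873). That call was also lost without any one array other than HUG1N control replicate 2, with changes of 0.18 to 0.32 and adjusted p of 0.0556 to 0.186. The topoisomerase gene TOP2A changed in Caco-2 by -0.35 (SE 0.08, adjusted p = 0.0193), a call lost without control replicate 1 (-0.28, 0.0975) or shRNA replicate 1 (-0.31, 0.0890), and stood at -0.07 (-0.28 to 0.13) in HUG1N.

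In all, 11 genes were called lower in both lines, CKS2, AURKB, TACC3, BUB1B, CENPA, ESPL1, KIF14, KIF20A, KIF2C, RACGAP1 and NUSAP1. They make up 61.1% of the 18 Caco-2 falls and 47.8% of the 23 HUG1N falls, and 22.4% of the 49 genes, against 6.89% of all genes tested that were called lower in both. In the remaining pairs of calls there were 0 genes higher in both lines, against 6.29% of all genes tested, and 0 higher in Caco-2 and lower in HUG1N, against 3.86%. For 26 of the 49 genes the shRNA arrays lay below the control arrays in both lines, against 16.3% of all genes tested. Only ESPL1, KIF2C, RACGAP1 and NUSAP1 were called lower in both lines under all 17 alternatives run on single genes. In Caco-2 each of the other 7 lost its call without at least 1 array. The loss came without shRNA replicate 2 for CKS2 (-0.58, adjusted p = 0.0659), and for AURKB without control replicate 2 (-0.35, 0.0792) or shRNA replicate 1 (-0.40, 0.0809). For TACC3 it came without control replicate 1 (-0.36, 0.0600), control replicate 2 (-0.38, 0.0521) or shRNA replicate 2 (-0.33, 0.0552), and for BUB1B without control replicate 1 (-0.30, 0.0678), control replicate 2 (-0.32, 0.0592) or shRNA replicate 1 (-0.30, 0.0583). CENPA, KIF14 and KIF20A lost the Caco-2 call without any one of the 4 Caco-2 arrays, with adjusted p of 0.0736 to 0.126, 0.112 to 0.165 and 0.0764 to 0.132. In HUG1N the CENPA call failed without control replicate 1 (-0.59, 0.0554) or control replicate 2 (-0.54, 0.0707), that of KIF14 without control replicate 2 (-0.30, 0.0700) or shRNA replicate 2 (-0.25, 0.0544), and that of KIF20A without control replicate 1 (-0.21, 0.108) or shRNA replicate 2 (-0.25, 0.102). Direction was the same in every one of these fits.

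**Figure D2:**
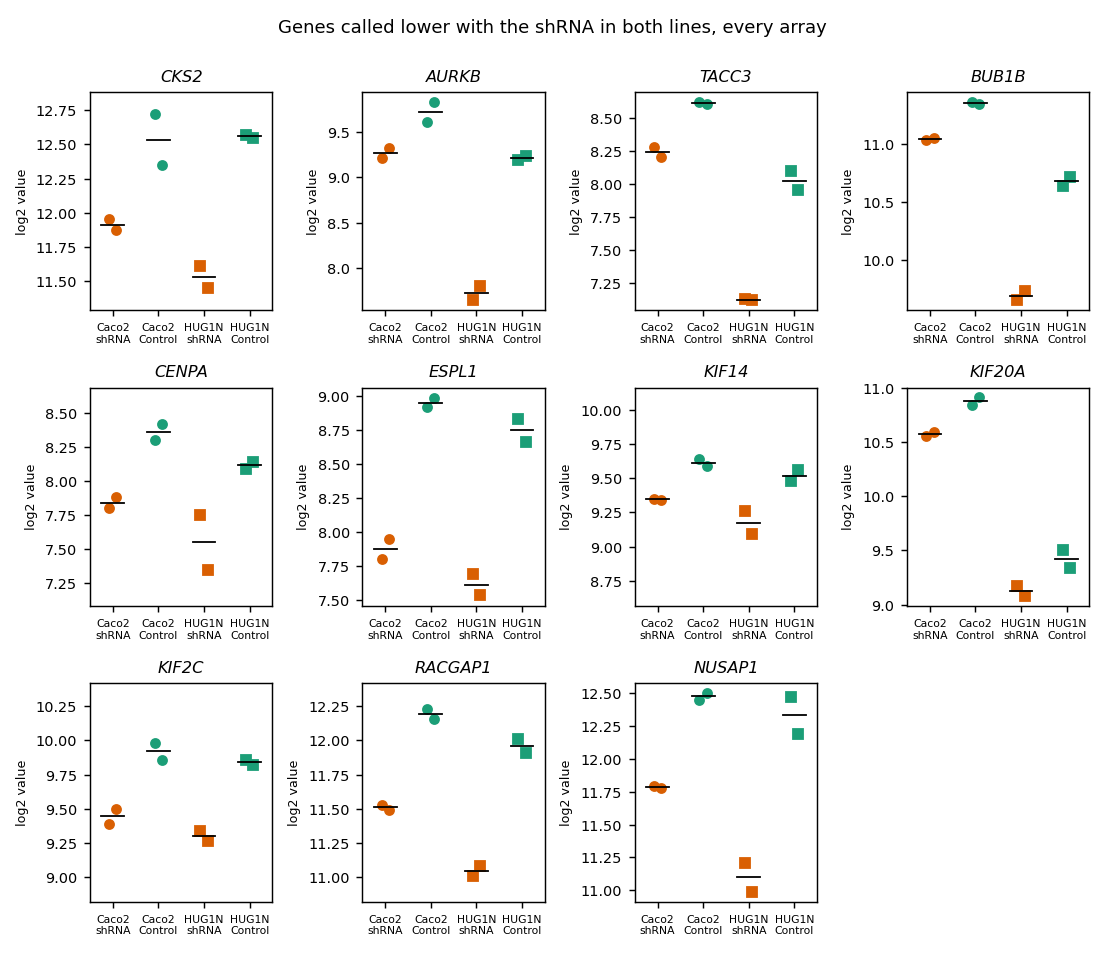
Log2 value (y axis) on every array of the 11 genes called lower in both lines, with points for arrays (circles Caco-2, squares HUG1N) and a line for the mean of each group of 2. In each panel the pair of shRNA arrays lies below the pair of control arrays of its line, and the y axes differ between panels.

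Between the lines, 14 of the 49 genes had a called difference of the shRNA effects, 7 lower and 7 higher in HUG1N relative to Caco-2, which is 14.3% each way against 22.7% and 22.2% of all genes tested. The 7 with the more negative HUG1N effect were AURKB, PTTG1, BUB1B, NUSAP1, TACC3, PRC1 and CKS1B. The 7 with the more positive HUG1N effect were FOXM1, HMMR, CENPE, KIF23, BIRC5, KIF11 and MAD2L1. AURKB, PTTG1, FOXM1, HMMR, BUB1B, CENPE and TACC3 kept the call under all 16 alternatives, and the other 7 lost it under at least 1. The difference of NUSAP1 became -0.15 (adjusted p = 0.481) with the mean of its probe sets. The counts were 4 lower without Caco-2 shRNA replicate 2 or without HUG1N control replicate 1. Higher differences numbered 3 without Caco-2 control replicate 1, and 4 without Caco-2 control replicate 2, Caco-2 shRNA replicate 2 or HUG1N control replicate 1.

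**Figure D3:**
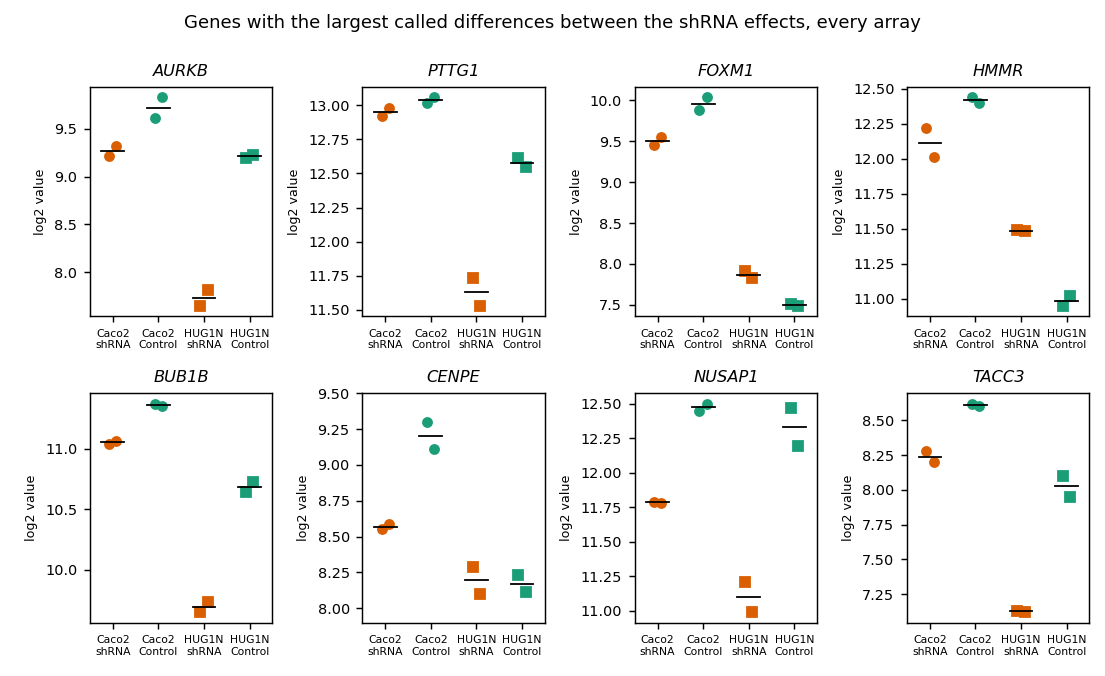
Log2 value (y axis) on every array of the 8 genes with the largest called differences between the shRNA effects, with points for arrays and a line for the mean of each group of 2. FOXM1 and HMMR lie lower in shRNA than in control arrays of Caco-2 and higher in those of HUG1N, while PTTG1 was called in HUG1N and CENPE in Caco-2 only. The y axes differ between panels.

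The lines already differed in their control cells. HUG1N control cells had lower values than Caco-2 control cells for 33 of the 49 genes and higher values for 5, which is 67.3% and 10.2% against 41.3% and 37.1% of all genes tested. The median difference was -0.59, against -0.051 over all genes tested. FOXM1 was 5.51-fold lower in HUG1N control cells, where it had 7.51 and 7.49, against 9.88 and 10.04 in Caco-2 control cells (-2.46, SE 0.08, adjusted p = 9.32e-07). CDC25C, the phosphatase that activates CDK1, had 6.86 and 6.89 in HUG1N control cells, against 9.31 and 9.36 in Caco-2 control cells (-2.46, SE 0.11, adjusted p = 2.47e-06). The proliferation marker MKI67 was 4.07-fold lower, with 9.62 and 9.54 in HUG1N control cells against 11.59 and 11.62 in Caco-2 control cells (-2.02, SE 0.08, adjusted p = 1.94e-06). With the mean of its 4 probe sets the MKI67 difference was smaller, at -1.28.

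SMC2, CCNA2 and CCNB1 came next, at -2.00 (SE 0.19), -1.99 (SE 0.13) and -1.87 (SE 0.13). The genes higher in HUG1N control cells were CDC25B at 1.42 (SE 0.08), NDC80 at 1.01 (SE 0.06), KIF18A at 0.65 (SE 0.13), BUB3 at 0.55 (SE 0.07) and CDC20 at 0.52 (SE 0.11). All 8 mitotic kinases and partners and all 6 condensin and chromosome genes were called lower in HUG1N control cells, against 41.3% of all genes tested. These calls are from the probe sets that stood for the genes. For SMC4 the other probe sets over the filter were higher in HUG1N control cells. Their means were 11.43 and 8.61 there, against 9.94 and 6.65 in Caco-2 control cells. Of the 11 genes that fell with the shRNA in both lines, 6 were not called between the control lines, CENPA, ESPL1, NUSAP1, KIF14, KIF2C and CKS2, with differences from -0.24 to 0.03. Over all 49 genes 11 were not called in that comparison, and over all 7696 genes tested 1664 were not. These control arrays are also those of the shRNA comparisons.

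**Figure D4:**
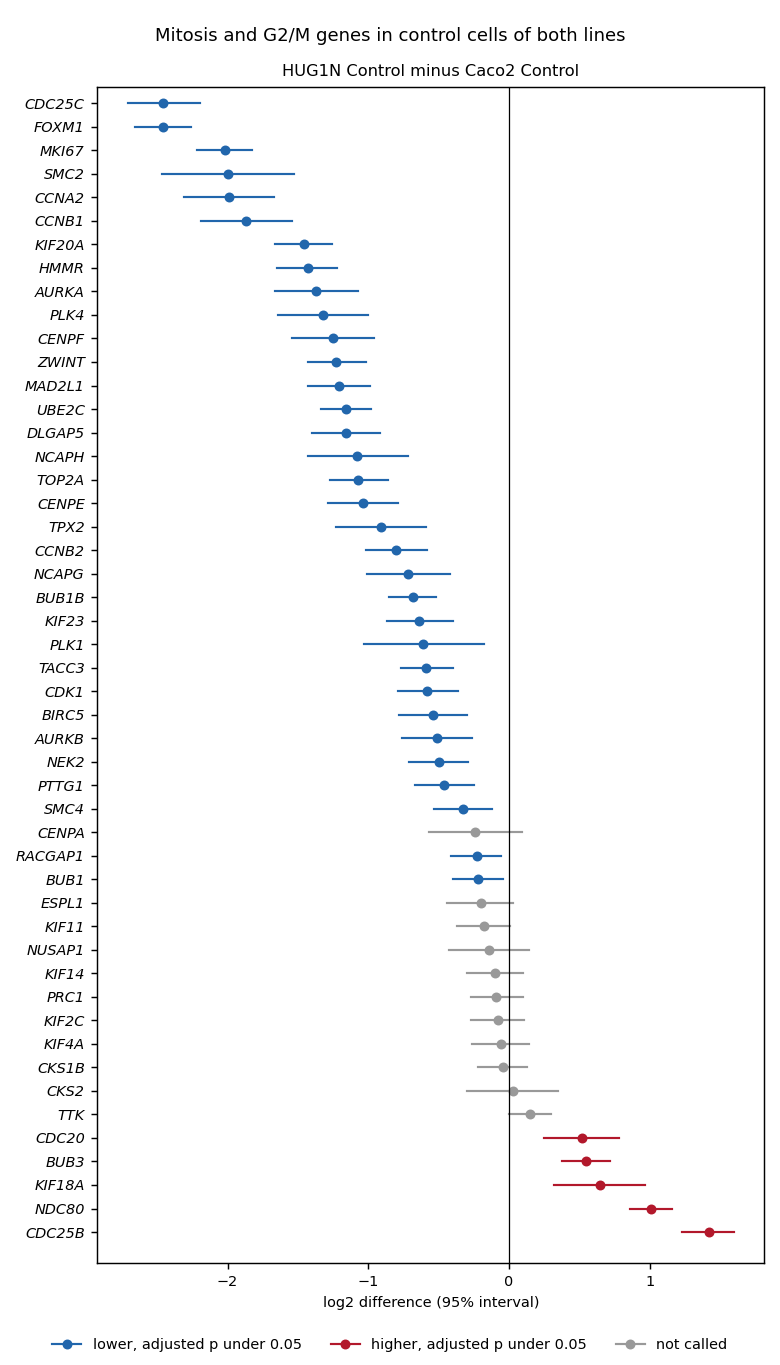
Log2 difference (HUG1N control minus Caco-2 control, x axis) of the 49 genes in order of size, with points for the limma estimate, bars for its 95% interval and colours for the call. FOXM1 and CDC25C lie at -2.46 and CDC25B at 1.42.

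Other probe sets bear on some calls. Of 82 probe sets that name 1 of the 49 genes, 76 passed the filter, and 19 genes had several. The 27 probe sets that did not stand for their gene had the sign of the standing one in 25 cases in Caco-2 and 22 in HUG1N, and 0 were called against a called standing probe set. On its second probe set ESPL1 changed by -0.95 (SE 0.08) in Caco-2 and -1.02 (SE 0.08) in HUG1N, NUSAP1 by -0.95 (SE 0.12) and -0.70 (SE 0.12), and KIF2C by -0.34 (SE 0.11) and -0.83 (SE 0.11). HMMR was again called in both directions, at -0.39 (SE 0.09, adjusted p = 0.0215) in Caco-2 and 0.30 (SE 0.09, adjusted p = 0.0413) in HUG1N. TOP2A, called lower in Caco-2 on its standing probe set, was not called there on its other one (-0.19, SE 0.10, adjusted p = 0.175).

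MKI67, the Ki-67 gene, differed between its probe sets. Its brightest probe set had 11.37 and 11.54 in Caco-2 shRNA cells, against 11.59 and 11.62 in control cells, which was not called (-0.15, SE 0.08, adjusted p = 0.193). In HUG1N it had 9.17 and 9.23 in shRNA cells, against 9.62 and 9.54 in control cells (-0.38, SE 0.08, adjusted p = 0.0106; -0.34 and 0.0518 without control replicate 1). The other 3 probe sets were called lower in Caco-2, at -0.45 (SE 0.13), -0.87 (SE 0.12) and -1.25 (SE 0.11). In HUG1N the first of these were also called lower, at -0.41 (adjusted p = 0.0396) and -0.73 (adjusted p = 0.00335). The last stood at -0.28 there and was not called (adjusted p = 0.0767). BIRC5, which encodes the passenger protein survivin, was not called on its brightest probe set in either line (-0.27 and 0.23). A dimmer probe set of BIRC5 fell in Caco-2 (-0.39, SE 0.10, adjusted p = 0.0253) and rose in HUG1N (1.36, SE 0.10, adjusted p = 2.48e-04), while the remaining one stood at 0.07 and 0.34. A dimmer probe set of CENPF, a kinetochore protein of late G2, rose in HUG1N by 1.09 (SE 0.15, adjusted p = 0.00217), and the standing one was at 0.30 (adjusted p = 0.0842). Where on the transcript each probe set lies is not known here, and the ACTB gap differed between the HUG1N groups as given above.

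**Figure D5:**
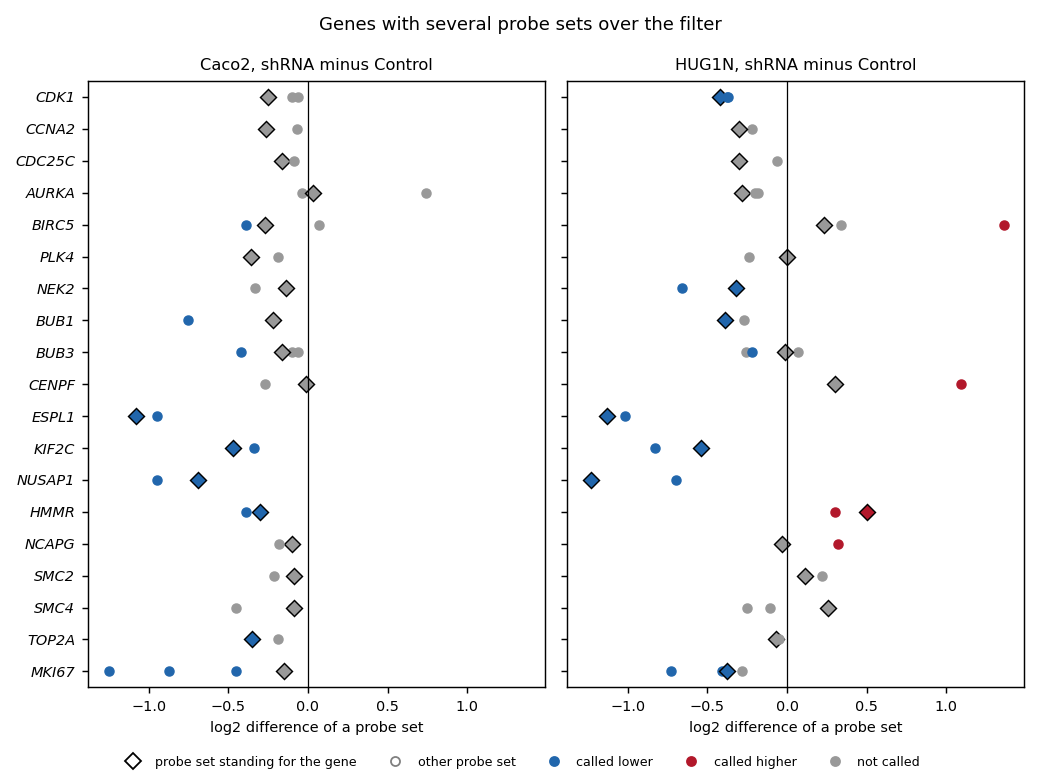
Log2 change (shRNA minus control, x axis) of each probe set over the filter for the 19 genes with several, in Caco-2 (left) and HUG1N (right), with diamonds for the probe set that stood for the gene, circles for the others and colours for the call. MKI67 spreads from -1.25 to -0.15 in Caco-2, and BIRC5 reaches 1.36 in HUG1N.

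A second list held 73 further mitosis genes, such as cohesin, kinetochore and anaphase-promoting complex subunits, of which 62 had a probe set and 59 were tested. In Caco-2, 16 of the 59 fell and 2 rose (27.1% and 3.39%, against 19.2% and 19.5% of all genes tested), with a median change of -0.21. The kinetochore gene SKA1 had 6.68 and 6.69 in shRNA cells, against 7.81 and 7.58 in control cells (-1.01, SE 0.14, adjusted p = 0.00250). CDCA8, a chromosomal passenger, changed by -0.78 (SE 0.23, adjusted p = 0.0390), CDCA3 by -0.73 (SE 0.12, adjusted p = 0.00482) and the checkpoint gene ZWILCH by -0.67 (SE 0.13, adjusted p = 0.0106). In HUG1N the list went both ways, with 14 falls and 15 rises (23.7% and 25.4%, against 23.9% and 24.7%) and a median of -0.12. CENPI, a centromere protein, had 5.62 and 6.35 in HUG1N shRNA cells, against 3.84 and 4.06 in control cells (2.03, SE 0.37, adjusted p = 0.00541). CENPI was thus dim, with control values near the log2 4 of the filter. The checkpoint gene MAD1L1 changed by -1.55 (SE 0.14, adjusted p = 4.11e-04), the kinetochore gene PMF1 by -1.09 (SE 0.14, adjusted p = 0.00139) and UBE2S, a ubiquitin-conjugating enzyme of the anaphase-promoting complex, by -0.94 (SE 0.11, adjusted p = 0.00113).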

How the data were processed

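The authors deposited log2 values for every probe set on each of the 8 arrays. Per the submitters' processing notes they used GCRMA, a method that corrects background, normalizes arrays together and summarises probes; no version or settings are given. The lowest value was the same on each array, and across 7696 genes the arrays of one group had r of 0.995 to 0.997. Of 22277 probe sets, 19070 had 1 symbol in the platform table, 1043 several and 2164 none here; symbols were updated through Entrez identifiers to RefSeq names. For each gene the probe set with the highest mean over the 8 arrays was used, and a gene was tested if it was over log2 4 in at least 2 arrays. Tests used limma 3.58.1 in R 4.3.3 (lmFit on 4 group means, eBayes), with Benjamini-Hochberg adjustment over all genes tested. One spread per gene was estimated over all 4 groups (4 residual degrees of freedom, prior degrees of freedom 2.17, prior SD 0.0989). Intervals are 95% and unadjusted. The fit was tested on simulated data. The number of arrays, 2 per group, limits the precision of every value. Alternatives covered the filter, normalization, probe set, variance model, floor, each line alone, a minimum of 2-fold, a block for replicate number and leaving out each array. The genes, lists and rules were chosen with earlier results of these data known. Every gene of the 49 could be named, and array values are given for genes called in both lines, the 10 largest called changes per line, and the 6 largest called differences between effects and between control lines. No genome was used; promoter windows are RefSeq sequences of GRCh38.p14, and 8 of the 49 genes had none in that table.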

Additional observations from a re-analysis of the deposited data

Results flagged for a closer look

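For 14 of the 49 genes the shRNA effect differed between the lines by limma's test of that difference (HUG1N effect minus Caco-2 effect, log2, adjusted p under 0.05 over 7696 genes), 7 lower and 7 higher. That is 14.3% each way, below the 22.7% and 22.2% of all genes tested. The difference was -1.03 for AURKB, -0.85 for PTTG1, -0.67 for BUB1B, -0.54 for NUSAP1, -0.53 for TACC3, -0.42 for PRC1 and -0.35 for CKS1B. On the other side it was 0.83 for FOXM1, 0.80 for HMMR, 0.66 for CENPE, 0.52 for KIF23, 0.50 for BIRC5, 0.48 for KIF11 and 0.43 for MAD2L1. For NUSAP1 the order of the lines was reversed on its second probe set, at -0.95 in Caco-2 and -0.70 in HUG1N. With the mean of its probe sets the NUSAP1 difference was -0.15. The HUG1N shRNA arrays behind these values also had the low BioB controls, 4.77 and 4.52, against 10.03 and 9.89 in HUG1N control arrays, and the part of this in the differences was not tested.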

How the results depend on the processing

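Counts of called genes were within 1.5 times the reported ones except as follows. With a 2-fold minimum, falls numbered 1 in Caco-2 and 4 in HUG1N, rises in HUG1N 0, called differences between effects 1 lower and 0 higher, and differences between control lines 18 lower and 2 higher. Rises in HUG1N numbered 2 with each line fitted alone. Higher differences between effects numbered 4 with no filter and 11 with eBayes run with trend and robust. Leaving out 1 array gave 9 to 18 falls in Caco-2, 17 to 24 falls and 2 to 6 rises in HUG1N, 4 to 8 lower and 3 to 10 higher differences between effects, and 30 to 34 lower and 5 to 5 higher between control lines; a lone array was assumed to vary like the other groups. Of single genes, 7 of 18 calls in Caco-2 and 15 of 28 in HUG1N held under all 17 alternatives. The BUB1 call in HUG1N was lost only with the mean of probe sets, which for BUB1 included probe sets at the lowest value on every array. Signs changed under at least 1 alternative or probe set for 5 genes in Caco-2, of which 0 were called, and 8 in HUG1N, of which 1 was called. Where a call stood on either side, direction turned for SMC4 in HUG1N, at -0.03 with the mean of probe sets and -0.25 and -0.11 on its other probe sets, and for NCAPG in HUG1N, at 0.32 on its other probe set, a check chosen after seeing the data; the cause was not tested. The groups share replicate numbers, but deviations of same-numbered arrays correlated at only -0.06 to 0.07, so the numbers were not taken as pairs. With the replicate number as a block there were 18 falls and 0 rises in Caco-2, 25 and 4 in HUG1N, and 6 lower and 6 higher differences between effects. Which genes were called changed: in Caco-2 KIF14 and HMMR lost the call (adjusted p = 0.0645 and 0.0542) and CDK1 and DLGAP5 gained it (0.0455 and 0.0354), in HUG1N SMC4 lost it (0.0743) and CCNA2 and DLGAP5 gained it (0.0366 and 0.0284), and the differences of CKS1B (0.0584) and MAD2L1 (0.0585) were lost.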

Other observations

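Genes of DNA replication and the G1/S transition, the preceding part of the cell cycle, were tested as a further list. Of its 39 genes 35 passed the filter. In Caco-2, 19 fell and 1 rose (54.3% and 2.86%, against 19.2% and 19.5% of all genes tested), with a median log2 change of -0.36. There the helicase subunit MCM6 had 11.57 and 11.60 in shRNA cells, against 12.45 and 12.41 in control cells (-0.85, SE 0.09, limma adjusted p = 8.60e-04), and GINS4 changed by -1.15 (SE 0.18, adjusted p = 0.00391). In HUG1N, 5 fell and 11 rose (14.3% and 31.4%, against 23.9% and 24.7% of all genes tested), with a median of 0.15. The rises there included the polymerase subunit POLA1 (0.72, SE 0.12, adjusted p = 0.00337) and GINS2 (0.55, SE 0.09, adjusted p = 0.00384), while the origin licensing factor CDT1 changed by -1.12 (SE 0.11, adjusted p = 5.30e-04). CCNE2, an E-type cyclin, was called higher in both lines, at 0.77 (SE 0.16, adjusted p = 0.0126) in Caco-2 and 0.79 (SE 0.16, adjusted p = 0.00849) in HUG1N. The difference between the effects was called higher in HUG1N for 20 of the 35 genes and lower for 2 (57.1% and 5.71%, against 22.2% and 22.7% of all genes tested). The list was chosen with earlier results of these data known.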
